A study of Arabidopsis thaliana with 6 samples.

Results

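Transcript levels in open, pollinated flowers of Arabidopsis thaliana were set against those in closed flower buds picked shortly before pollination. The comparison takes in 4 of the 6 arrays in the series, 2 per stage, and every probe set outside the array controls: 12075 of 22810 probe sets on the table reached a signal of 50 on at least 2 of the 6 arrays and were tested. Both stages came from untreated plants of the accession Landsberg erecta that were 6 weeks old, and each sample pooled tissue of 12 plants. Complete flowers and complete buds were used, so each array averages over sepals, petals, stamens, carpels and nectaries. The remaining 2 arrays hold siliques harvested 2 d after pollination with the withering floral organs removed; they helped to estimate the spread in the model and counted toward the signal minimum, and their signals are given beside the others. Of the tested probe sets, 416 reached that minimum only with the silique arrays. Others reached it only with the bud arrays, among them AT5G07230, SHT, sks18, TET15, XIE, CHX19, TMT3 and SPL, described below. Still others, such as SWEET9, reached it only with the flower arrays. For these a bright signal in that stage was a condition of being tested, and their number was not counted. The shares of gene list and family members called below lean on such genes to an extent that was not measured. The signal is a brightness on a linear scale with no unit. Changes are differences of log2(signal + 10), flowers minus buds, with limma's standard error after the ± sign, and a probe set counted as higher or lower in flowers at a Benjamini-Hochberg adjusted p under 0.05.

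As background, a flower bud shortly before pollination holds anthers in which the pollen is close to mature. The tapetum, a nutritive cell layer lining the anther, builds the pollen wall and then degenerates. When the flower opens, petals and stamen filaments elongate by cell expansion, anthers release pollen, nectaries secrete sugar, and terpenes and pigments are made. After pollination, pollen tubes grow through the stigma and style to the ovules, and the petals, sepals and stamens begin to senesce. Because each sample is a whole organ, fewer cells of a type and less RNA per cell cannot be told apart in these values.

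The labels were checked against markers of the tissues the samples should hold. All 4 tapetum markers with a tested probe set were lower in flowers, and the nectary marker SWEET9 was higher. AT5G07230, ATA27 and SHT reached the signal minimum only on the bud arrays, and SWEET9 only on the flower arrays. Their direction was thus largely a condition of being tested and is a weak check of the labels. The tapetum marker SWEET8 lay above the minimum on every array. The pollen, ovule and petal markers did not move as a block. Of the pollen markers, AtVEX1, AGL66 and AGL104 were lower, and these too reached the signal minimum only on the bud arrays. MGH3, ANX2 and AT4G39110 (entered in the marker list as BUPS1) did not pass. The ovule genes INO and SPT and the petal gene BPEp did not pass either, and BAN, of the seed coat, was higher. Other markers, among them AP3, PI, CRC, VGD1 and the leaf genes RBCS1A and CAB1, had no probe set of their own in the supplied gene table. Log2 signals correlated at 0.963 between the flower arrays, 0.936 between the bud arrays and 0.743 to 0.806 between a flower and a bud array. The ratio of 3′ to 5′ signal, a sign of RNA integrity, was above both bud arrays on both flower arrays for 5 of 6 pairs of control probe sets. These pairs measure GAPDH, actin and ubiquitin, each by a first and a second set. With the first set the ratio was 1.61 and 1.45 in flowers and 1.12 and 1.36 in buds for GAPDH. For actin it was 10.0 and 7.67 in flowers and 5.53 and 7.30 in buds. With the second set it was 0.967 and 1.02 in flowers and 0.869 and 0.919 in buds for GAPDH. For actin it was then 1.34 and 1.41 in flowers and 1.30 and 1.19 in buds. Its part in the results was not tested. Nothing in the labels says more of the replicates than that the whole experiment was run 2 times, so p-values measure the spread between these samples, and the number of arrays limits the precision.

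In flowers 547 probe sets were higher (4.53% of those tested) and 740 were lower (6.13%), 10.7% together. At an unadjusted p under 0.05, 3022 differed. Large falls outnumbered large rises, with more falls than rises called to begin with. A change of at least 2 in log2 was seen in 164 of the higher and 267 of the lower probe sets, one of at least 3 in 47 and 143, and one of at least 4 in 15 and 61. The median change was 1.51 among the higher, −1.55 among the lower and −0.01 over all tested probe sets. Most of the higher probe sets were already measurable in buds: their median signal was 199 in flowers and 63.8 in buds, and in 30 of 547 both bud arrays lay at or below the brightest control probe set without a target. The lower ones had a median signal of 45.0 in flowers and 182 in buds, and in 53 of 740 both flower arrays lay at or below that control level. With probe sets split into 3 equal groups by signal, 4.20% of the dimmest, 4.12% of the middle and 5.27% of the brightest were higher in flowers, and 7.85%, 5.29% and 5.24% were lower. No called probe set had overlapping arrays between the stages. Lack of overlap was common, though: of all 12075 tested probe sets, 3117 had it with flowers higher and 3557 with flowers lower. Counted once per identified gene, 244 of 6275 genes were higher (3.89%) and 376 were lower (5.99%), 9.88% together, and the counts for gene lists and families below stand against these shares.

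**Figure D1:**
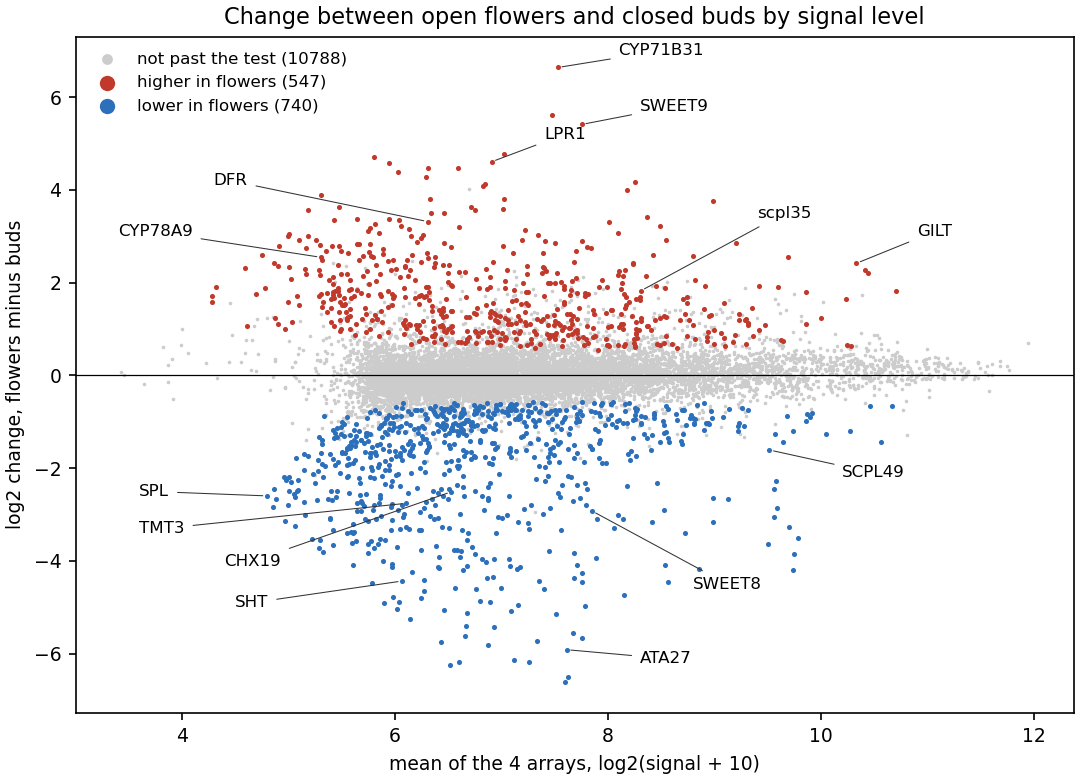
Change between stages against signal level, 1 point per tested probe set. The x axis is the mean log2(signal + 10) over the 4 arrays, the y axis the log2 change, flowers minus buds; red points (547) were higher in flowers, blue points (740) lower, grey points did not pass. Falls extend below −6 and rises above 6, and labelled genes are described in the text.

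Silique signals were compared with those of the earlier stages. Of the 547 probe sets higher in flowers, the silique mean lay between the flower and bud means for 280, below both for 152 and above both for 115. Of those 115, 17 had been tested only because of the silique arrays, so that a bright silique signal was a condition of their being tested. Of the 740 lower in flowers, it lay between for 341, below both for 352 and above both for 47. The median silique signal was 108 for the higher and 43.5 for the lower probe sets. Both runs of the experiment moved the same way for every called probe set. This follows from the lack of overlap between their flower and bud arrays and is no separate evidence. The change was the larger in run 1 for 158 of the 547 higher and for 303 of the 740 lower probe sets, so that rises were mostly larger in run 2. The count of higher probe sets was 275 without flowers replicate 1, 219 without flowers replicate 2 and 278 without buds replicate 2, and that of lower ones 388, 361 and 428.

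**Figure D2:**
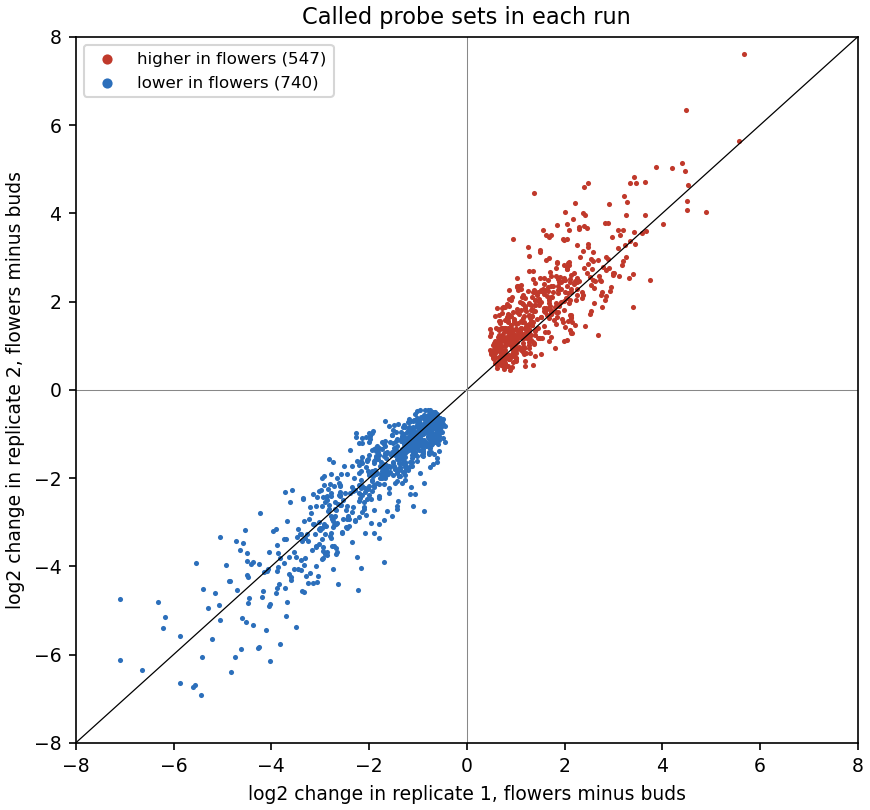
Log2 change, flowers minus buds, of each called probe set in replicate 1 (x axis) and replicate 2 (y axis); red, higher in flowers (547); blue, lower (740); the line marks equal change. Every point lies where both changes are positive or both negative, which the lack of overlap between stages requires. Most red points lie above the line.

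Genes of the tapetum and pollen wall had the lowest median change of any gene list in flowers. Of 6 tested genes on that list, 5 were lower in flowers and 0 higher (median change −4.52, and −4.36 and −4.63 in run 1 and run 2), against 5.99% lower over all genes. AT5G07230, ATA27, SHT and AT1G75920 reached the signal minimum only on the bud arrays. A bright bud signal was thus a condition of their being tested, and the count and the median lean on it. SWEET8 lay above the minimum on every array. AT5G07230, entered as the tapetum gene A9, had signals of 1.58 and 1.28 in flowers and 553 and 1199 in buds, at least 95.3-fold lower in flowers. ATA27 (AT1G75940), a beta-glucosidase of the anther, had 0.669 and 49.6 in flowers and 1439 and 1581 in buds. The flower arrays differed widely from each other, but both lay far below the buds (−5.91 ± 0.70, adjusted p = 0.00331). SHT (AT2G19070), the spermidine hydroxycinnamoyl transferase that makes phenolamides of the pollen coat, had 2.67 and 6.45 in flowers and 195 and 463 in buds, at least 35.2-fold lower. AT1G75920, also on the list, had 8.07 and 16.8 in flowers and 457 and 609 in buds (−4.61 ± 0.25). SWEET8 (AT5G40260), a sugar exporter whose loss harms pollen wall formation, is described with its family below. EMS1, the receptor kinase that specifies the tapetum early in anther development, did not pass, at 219 and 184 in flowers and 145 and 185 in buds (adjusted p = 0.370). SPL (AT4G27330), the SPOROCYTELESS regulator that starts spore formation, had 1.50 and 1.13 in flowers and 59.2 and 57.8 in buds, at least 6.85-fold lower; with an offset of 1 that call was lost (adjusted p = 0.0606). The calls of the 5 lower tapetum and pollen wall genes held in all 13 alternative settings that were run.

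Further deep falls stood outside the tapetum list. sks18 (AT1G75790), of a family of proteins that resemble multicopper oxidases, had 2.16 and 8.06 in flowers and 168 and 301 in buds (−3.99 ± 0.36, adjusted p = 0.00119). ATOEP16-2 (AT4G16160), a protein of the outer plastid envelope, had 1.49 and 5.89 in flowers and 137 and 115 in buds, at least 14.7-fold lower. TET15 (AT5G57810), a tetraspanin, which is a membrane protein with several membrane-spanning segments, had 18.6 and 18.8 in flowers and 234 and 170 in buds (−2.87 ± 0.26). In siliques TET15 and sks18 were lower still or as low, at 3.97 and 0.621, and 1.99 and 1.32. LEA (AT2G21490), of the late embryogenesis abundant proteins, had 23.4 and 11.6 in flowers and 746 and 384 in buds (−4.35 ± 0.64, adjusted p = 0.00791), a call lost without flowers replicate 2 (adjusted p = 0.0514). DD46 (AT1G22015) had 23.6 and 14.9 in flowers and 144 and 172 in buds, and PC1, as the gene table names it, 23.9 and 26.9 in flowers and 201 and 210 in buds. The plot of the 15 largest rises and falls among genes with a symbol or on a list shows each of these on every array.

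**Figure D3:**
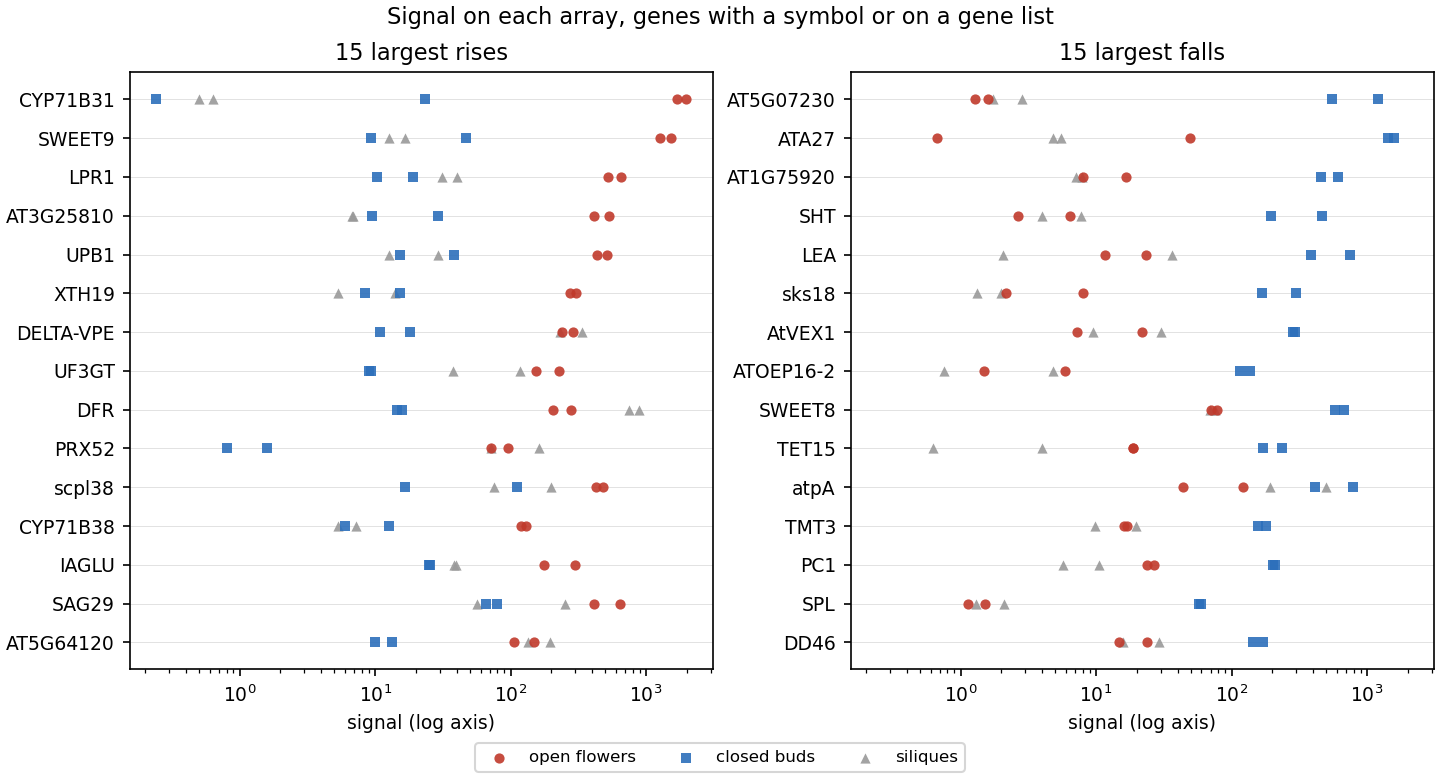
Signal on each array (log axis) for the 15 genes with the largest rises (left) and the 15 with the largest falls (right). They were taken from called genes that have a symbol or stand on a gene list. Flower and bud arrays that do not overlap were a condition of being shown. Red circles are open flowers, blue squares closed buds and grey triangles siliques, 2 arrays each. The silique signal of DFR, at 748 and 894, lies above those of flowers and buds.

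Genes known from mature pollen and the pollen tube did not fall together. Of 7 tested genes, 3 were lower and 0 higher in flowers (median −1.18, and −1.68 and −0.68 by run). The lower genes, AtVEX1, AGL104 and AGL66, reached the signal minimum only on the bud arrays, which was a condition of their being tested. With a signal minimum of 100, 1 was lower and the median was 0.36, and without flowers replicate 1, 1 was lower. AGL104 and AGL66, MADS-box factors of the pollen, had 11.5 and 16.6, and 26.6 and 13.8, in flowers, and 91.7 and 72.0, and 126 and 63.3, in buds. AGL104 lost its call without flowers replicate 1 (adjusted p = 0.0552); AGL66 lost its call without flowers replicate 1 (0.0861), flowers replicate 2 (0.207) or buds replicate 1 (0.152), and with the replicate block (0.0511). The pollen tube receptor kinase ANX2 pointed the other way, at 111 and 151 in flowers and 61.8 and 25.4 in buds, but did not pass (adjusted p = 0.0709); it passed with an offset of 50 (0.0432), with quantile normalization (0.0459) and without buds replicate 1 (0.0341). MGH3, the histone H3 of the male gamete, had 57.3 and 60.5 in flowers and 206 and 103 in buds, and its change of −1.18 ± 0.40 did not pass (adjusted p = 0.128). AT5G45880, the brightest on the list, had 2034 and 1807 in flowers and 1723 and 1287 in buds (adjusted p = 0.517).

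Class XI myosins, cation exchangers and tetraspanins had lower members as well. These families, like the other families named by symbol below, were grouped after the data were seen, and XIC, XIE, CHX19, TET15 and TET11 kept their calls in every alternative setting that tested them. These genes and CHX20 reached the signal minimum only on the bud arrays. A bright bud signal was thus a condition of their being tested, and the counts of lower members lean on it. Of 3 tested class XI myosins, the motors that drive organelles along actin, 2 were lower. XIE (AT1G54560) had 14.3 and 20.9 in flowers and 136 and 130 in buds (−2.38 ± 0.22, adjusted p = 0.00127), and XIC (AT1G08730) had 19.5 and 21.9 in flowers and 96.1 and 81.3 in buds (−1.68 ± 0.20). The silique signals of both, 11.8 to 20.8, were close to those of flowers. Actin, tubulin and other motor genes, 14 tested with these, had no further call: ACT11 stood at 591 and 705 in flowers and 749 and 655 in buds, and TUA6 at 1247 and 1377 in flowers and 1585 and 1578 in buds. The proton-coupled cation exchanger CHX19 (AT3G17630) had 28.9 and 28.6 in flowers and 214 and 206 in buds (−2.51 ± 0.16, adjusted p = 0.000448). CHX20, the other tested member, had 3.63 and 13.9 in flowers and 67.9 and 69.1 in buds, a call lost without flowers replicate 1 (adjusted p = 0.0564) or buds replicate 2 (0.0630). Of 8 tested tetraspanins 2 were lower, TET15 and TET11 (14.1 and 20.6 in flowers, 114 and 91.3 in buds). TET3 did not pass, at 271 and 212 in flowers and 108 and 57.4 in buds (adjusted p = 0.0592). With the replicate block 2 tetraspanins were higher and 3 lower.

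Nectary and scent genes had the highest median change among gene lists with at least 5 tested genes. Of 6 tested genes on that list, 4 were higher and 0 lower (median 2.84, and 2.36 and 3.31 by run), beside 3.89% higher over all genes. CYP71B31, SWEET9 and AT3G25810 reached the signal minimum only on the flower arrays. A bright flower signal was thus a condition of their being tested, and the count and the median lean on it. CYP71B31 (AT3G53300), a cytochrome P450 that oxidises the scent compound linalool, had 1695 and 1983 in flowers and 23.5 and 0.242 in buds. SWEET9 (AT2G39060), the sucrose exporter of the nectary, had 1272 and 1539 in flowers and 47.0 and 9.26 in buds. In siliques both were dim, at 0.636 and 0.500 for CYP71B31 and 12.7 and 16.7 for SWEET9. AT3G25810, entered as the terpene synthase TPS24, had 410 and 537 in flowers and 29.2 and 9.43 in buds (4.12 ± 0.34, adjusted p = 0.000900). AT5G44630, also on the list, was already bright in buds, with 856 and 1002 in flowers and 341 and 280 in buds (1.55 ± 0.18, adjusted p = 0.00309). JMT, which makes the volatile methyl jasmonate, had 376 and 942 in flowers and 166 and 283 in buds and did not pass (adjusted p = 0.0959), though it did with the replicate block (0.0279) and without flowers replicate 1 (0.0225). The petal growth factor BPEp had 99.6 and 78.5 in flowers and 88.4 and 127 in buds (adjusted p = 0.645).

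All 6 tested cytochrome P450 genes had positive changes, and 3 of them were higher in flowers (median 1.56). Of the higher genes, at least CYP71B31 and CYP78A9 reached the signal minimum only on the flower arrays. CYP71B38 (AT3G44250) had 119 and 131 in flowers and 5.97 and 12.6 in buds (2.83 ± 0.27). CYP78A9 (AT3G61880), a regulator of fruit and seed size, had 83.0 and 88.3 in flowers and 6.15 and 6.61 in buds, at least 9.64-fold higher. Its silique signals of 22.2 and 22.7 lay between. CYP71B28 and CYP71B6, which share the CYP71B symbol with the strongly raised genes, did not pass (adjusted p = 0.210 and 0.420).

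Genes of sugar transport changed in both directions. Of 18 tested genes of sugar transport and sucrose metabolism, 3 were higher and 6 lower, with a median of −0.36. SWEET proteins, which let sugars pass membranes along their gradient, made up 14 of these, with 3 higher, 5 lower and 6 not past the test. SWEET4 (AT3G28007) had 635 and 776 in flowers and 215 and 155 in buds (1.89 ± 0.20, adjusted p = 0.00220). SAG29, the senescence-associated SWEET15, had 414 and 640 in flowers and 65.7 and 79.5 in buds, a call lost without the filter (adjusted p = 0.0540) and without any 1 of the flower and bud arrays (0.0848 to 0.167). The rises of SWEET9, SAG29 and SWEET4 were 5.41 ± 0.46, 2.67 ± 0.59 and 1.89 ± 0.20.

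The 5 lower SWEET genes were measurable on every bud array. For AtVEX1 this was a condition of its being tested, since its flower and silique signals all lay under the signal minimum. AtVEX1 (AT5G62850), the SWEET of the pollen vegetative cell, had 21.8 and 7.22 in flowers and 284 and 297 in buds (−3.68 ± 0.41). SWEET8 had 77.7 and 70.1 in flowers and 577 and 678 in buds (−2.92 ± 0.15, adjusted p = 0.000350). Its silique signals of 75.4 and 69.4 were those of the flowers. SWEET7 (AT4G10850) had 79.0 and 67.6 in flowers and 349 and 275 in buds, and SWEET3 (AT5G53190) 84.9 and 84.5 in flowers and 307 and 311 in buds. They parted in the fruit, where SWEET7 stood at 223 and 198 and SWEET3 at 23.5 and 11.8. SWEET10 fell by 1.03 ± 0.20 on the log2 scale, with 215 and 210 in flowers and 424 and 466 in buds, but lost its call without any 1 of the 4 arrays (adjusted p = 0.0532 to 0.118). Of the 8 called SWEET genes, all but SAG29 and SWEET10 kept their calls in every alternative setting. SWEET3, SWEET4, SWEET7 and SWEET10, and those that did not pass other than SWEET11 and SWEET1, were named because they belong to the family.

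Among SWEET genes that did not pass, the brightest were SWEET11 and SWEET1. SWEET11, a sucrose transporter of the phloem, had 873 and 864 in flowers and 427 and 296 in buds, and its change of 1.26 ± 0.34 missed the threshold (adjusted p = 0.0667) but passed with siliques left out of the fit (0.0227) and with an offset of 50 (0.0487). SWEET1, a glucose transporter, had 845 and 885 in flowers and 671 and 638 in buds (adjusted p = 0.124). SWEET13 and SWEET14, sucrose transporters of the anther, moved in opposite ways in the runs. SWEET14 had 80.4 and 222 in flowers and 616 and 141 in buds, a change of −2.79 in run 1 and 0.62 in run 2; SWEET13 had 132 and 371 in flowers and 305 and 108 in buds, −1.15 and 1.69 by run. In both genes the first bud array was well above the second. Outside the SWEET family, the vacuolar sugar transporter TMT3 (AT3G51490) had 17.0 and 16.0 in flowers and 181 and 158 in buds (−2.76 ± 0.25, adjusted p = 0.00124). Its relatives TMT1 and TMT2 did not pass (91.4 and 88.6 in flowers against 90.4 and 104 in buds for TMT1, adjusted p = 0.792; adjusted p = 0.736 for TMT2).

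**Figure D4:**
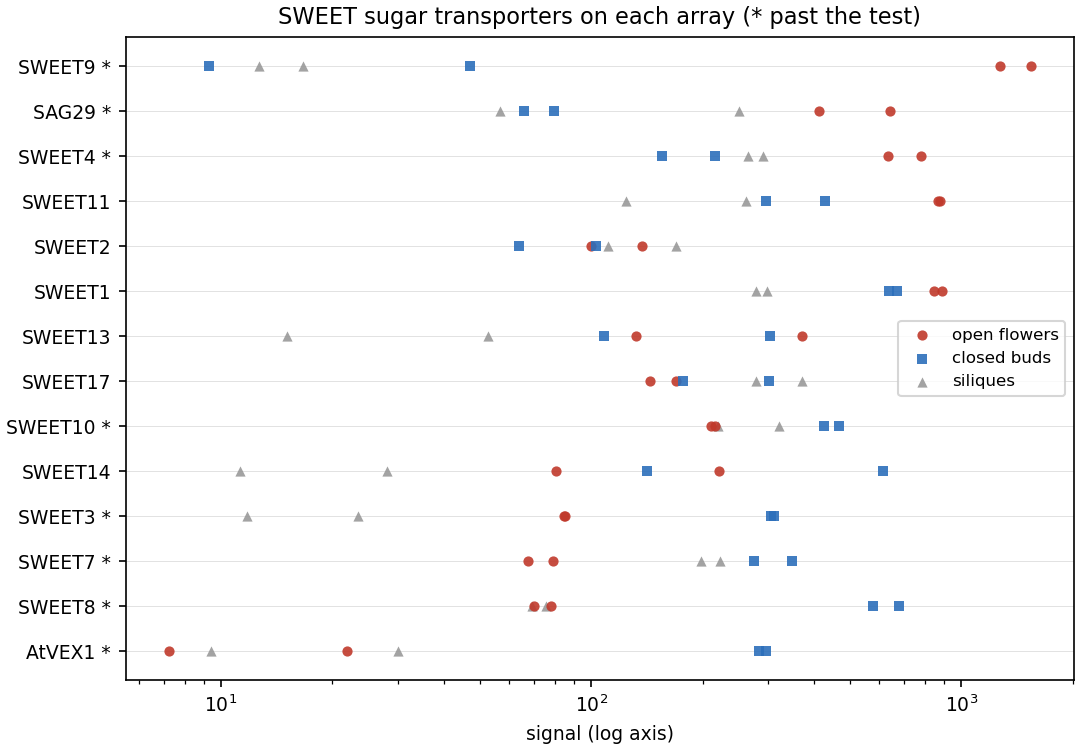
Signal on each array (log axis) for the 14 tested SWEET sugar transporters, ordered by change from the largest rise (SWEET9, 5.41) to the largest fall (AtVEX1, −3.68); an asterisk marks the 8 past the test. Red circles are flowers, blue squares buds and grey triangles siliques; the stages overlap for SWEET2, SWEET13 and SWEET14.

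Wall-remodelling genes were higher in flowers where called among the xyloglucan enzymes and expansins. Of 5 tested xyloglucan endotransglucosylase/hydrolases, which cut and rejoin wall xyloglucan, 3 were higher and 0 lower (median 1.10). XTH19 (AT4G30290) had 305 and 276 in flowers and 15.3 and 8.46 in buds (3.80 ± 0.29). XTH33 (AT1G10550) had 79.7 and 104 in flowers and 14.9 and 5.18 in buds (2.38 ± 0.29, adjusted p = 0.00383). EXGT-A3 had 411 and 388 in flowers and 219 and 149 in buds, a call lost without flowers replicate 1 (adjusted p = 0.0892) or replicate 2 (0.0801). XTH16 and XTH32 did not pass, with negative changes of −0.81 ± 0.21 and −0.44 ± 0.46. In siliques XTH19 was back to 5.36 and 14.1.

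Of 7 tested expansins, proteins that loosen walls in growing cells, 1 was higher. EXPA4 (AT2G39700) had 410 and 417 in flowers and 156 and 145 in buds (1.40 ± 0.15, adjusted p = 0.00227), with silique signals of 186 and 221. EXLA1 and EXPA8, the brightest that did not pass, had 998 and 596, and 184 and 446, in flowers, and 394 and 135, and 369 and 297, in buds. EXLA1 passed with the replicate block (adjusted p = 0.0133) and without buds replicate 1 (0.0145). Among 10 genes of cellulose, callose and related glycans only CSLA01 (AT4G16590), of a family that makes mannan backbones, was called, at 43.2 and 92.2 in flowers and 306 and 376 in buds (−2.24 ± 0.30). COB, which orients cellulose, and CSLC04, of xyloglucan synthesis, did not pass (adjusted p = 0.643 and 0.389), and 0 of 4 pectin genes passed. The glycosyl hydrolases of family 9, which cut cellulose-like glucans, had 2 of 9 members higher and 3 lower. The calls were lost without flowers replicate 1 or without flowers replicate 2. With the replicate block 1 was higher and 3 were lower. Only 1 was lower with an offset of 50, no filter, a signal minimum of 100, median normalization or siliques left out of the fit. GH9B11 had the widest change, with 123 and 151 in flowers and 30.2 and 4.23 in buds, a call lost without flowers replicate 1 (adjusted p = 0.0732) or replicate 2 (0.111).

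Pigment and conjugation genes were higher where called. Of 6 tested flavonoid and phenylpropanoid genes, 2 were higher and 0 lower (median 0.62). DFR (AT5G42800), the dihydroflavonol reductase on the way to anthocyanin and tannin, had 205 and 281 in flowers and 14.6 and 15.7 in buds (3.31 ± 0.19, adjusted p = 0.000387). BAN, the anthocyanidin reductase of seed coat tannin, had 17.3 and 35.9 in flowers and 0.850 and 0.617 in buds, at least 2.80-fold higher, but it did not pass when siliques were left out of the fit (adjusted p = 0.0555). In siliques DFR stood at 748 and 894 and BAN at 665 and 658; BAN was tested only because of those arrays, being under the signal minimum on the flower and bud arrays. UF3GT (AT5G54060), which adds xylose to anthocyanins, had a different course. It had 154 and 229 in flowers and 9.08 and 9.39 in buds (3.36 ± 0.44, adjusted p = 0.00515), and 37.9 and 117 in siliques. The flavonol glycosyltransferases UGT78D1 and UGT78D2 did not pass (adjusted p = 0.859 and 0.404).

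Of 24 UDP-glycosyltransferase and glutathione transferase genes, 5 were higher and 0 lower, but the median was only 0.13. The number higher was 3 with the replicate block and 1 to 2 with 1 array left out, so that beyond UF3GT the calls of UGT87A2, GSTU16, GSTU18 and UGT73B1 were each lost without at least flowers replicate 2 and buds replicate 2 (adjusted p from 0.0524 to 0.238 over the arrays whose removal ended a call). GSTU20 leaned the other way, with 204 and 170 in flowers and 404 and 763 in buds (−1.53 ± 0.38, adjusted p = 0.0520), and passed with quantile normalization (0.0394), with siliques left out of the fit (0.0455) and without buds replicate 1 (0.0327). GSTL3 did not pass either and had 453 and 445 in flowers and 431 and 418 in buds.

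Genes of auxin conjugation and response were among the higher ones. IAGLU (AT4G15550), an indole-3-acetate glucosyltransferase, had 175 and 300 in flowers and 25.5 and 25.1 in buds (2.76 ± 0.25, adjusted p = 0.00125). GH3.17 (AT1G28130), which joins auxin to amino acids, had 414 and 269 in flowers and 55.4 and 36.8 in buds, a call lost without flowers replicate 1 (adjusted p = 0.0761) or buds replicate 2 (0.0801). On the auxin list 2 of 5 tested genes were higher and 0 lower. The second was the response repressor IAA31, at 28.8 and 40.0 in flowers and 11.1 and 9.59 in buds, lost without flowers replicate 2 (adjusted p = 0.103) or buds replicate 2 (0.0697), with siliques left out of the fit (0.0642) and with an offset of 50 (0.0522). The conjugating enzymes WES1 and GH3.3 did not pass (adjusted p = 0.237 and 0.438). WES1 pointed the other way from the called auxin genes when buds replicate 2 was left out, with a change of −1.75. The cytokinin response regulator RR22 had 20.7 and 27.0 in flowers and 1.68 and 0.704 in buds, at least 2.66-fold higher, and lost its call without flowers replicate 2 (adjusted p = 0.0624) or with an offset of 50 (0.0751). In siliques IAA31 stood at 286 and 247, and RR22 at 301 and 217, and both genes were tested only because of those arrays.

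Further growth regulators that were higher stood in no list and were picked after their values were seen. ARL (AT2G44080), an ARGOS-like promoter of cell expansion in lateral organs, had 301 and 367 in flowers and 76.7 and 41.3 in buds (2.36 ± 0.27, adjusted p = 0.00300). CES (AT1G25330), the brassinosteroid pathway bHLH factor CESTA, had 482 and 472 in flowers and 170 and 149 in buds (1.52 ± 0.18), and was at 50.7 and 36.2 in siliques. ARPN (AT2G02850), the small copper protein plantacyanin of the pistil tract, had 490 and 553 in flowers and 145 and 126 in buds (1.87 ± 0.18, adjusted p = 0.00169). All 3 kept their calls in every alternative setting.

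Calls among transcription factors are given by gene list, beside 9.88% of all genes called, and a list need not hold a whole family. Of 8 tested genes on the bHLH list, which does not hold CES, 1 was higher, UPB1 (AT2G47270). UPB1, known from roots as a repressor of peroxidase genes, had 438 and 519 in flowers and 38.4 and 15.3 in buds (3.80 ± 0.37, adjusted p = 0.00162). Of 14 bZIP, TCP, GATA and related factors 1 was higher, bZIP44, at 746 and 718 in flowers and 435 and 444 in buds, a call lost without any 1 of the 4 arrays (adjusted p = 0.0613 to 0.127). ILR3 and bHLH115, regulators of iron homeostasis, did not pass, at 397 and 343, and 132 and 134, in flowers, and 382 and 312, and 179 and 165, in buds. No WRKY or homeodomain gene of 2 tested each was called. Of 8 MADS-box and related floral regulators 3 were lower, namely SPL, AGL104 and AGL66, described above. All of these reached the signal minimum only on the bud arrays, so a bright bud signal was a condition of their being tested. With a signal minimum of 100 the list had 0 lower genes, and with an offset of 1 it had 1. AGL104 and AGL66 are also among the lower pollen genes above. Of 5 carpel and fruit patterning genes 1 was lower: YAB3, which sets organ polarity, had 53.1 and 61.0 in flowers and 126 and 134 in buds, a call lost without flowers replicate 1 (adjusted p = 0.0717), flowers replicate 2 (0.0512) or buds replicate 2 (0.0633).

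Genes of senescence and programmed cell death were higher where called. Of 4 tested genes on that list 3 were higher and 0 lower (median 2.00), SAG29 among them. DELTA-VPE (AT3G20210), a vacuolar processing enzyme known from cell death in the seed coat, had 289 and 239 in flowers and 18.0 and 10.8 in buds (3.50 ± 0.24, adjusted p = 0.000557). It held that level in siliques, at 339 and 230. BETA-VPE had 118 and 116 in flowers and 60.8 and 40.6 in buds, a call lost without flowers replicate 1 (adjusted p = 0.140), flowers replicate 2 (0.139) or buds replicate 2 (0.0814), and 13.6 and 14.2 in siliques. GAMMA-VPE, the vegetative form, had 959 and 680 in flowers and 475 and 211 in buds and did not pass (adjusted p = 0.0711), though it did with the replicate block (0.0298). GILT (AT4G12960), named for a thiol reductase of lysosomes in animals, stood in no list and was picked after its values were seen, with 3121 and 2823 in flowers and 675 and 445 in buds (2.42 ± 0.22, adjusted p = 0.00132).

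An oxidase and a pair of peroxidases were dim in buds and higher in flowers. LPR1 (AT1G23010), a multicopper oxidase known from phosphate sensing in the root tip, had 520 and 652 in flowers and 19.0 and 10.4 in buds (4.60 ± 0.23, adjusted p = 0.000350). Both tested class III peroxidases, enzymes that oxidise wall phenolics, were higher. PRX52 (AT5G05340) had 96.1 and 71.2 in flowers and 1.59 and 0.810 in buds, at least 9.32-fold higher, and AT5G64120 had 107 and 149 in flowers and 13.4 and 9.90 in buds (2.66 ± 0.24). Unlike LPR1, at 31.2 and 40.5 in siliques, both peroxidases stayed at flower level there or above it. Of 8 aldehyde dehydrogenases 1 was lower and 0 higher: ALDH2C4, of sinapate and ferulate synthesis, had 118 and 115 in flowers and 229 and 291 in buds, and lost its call without flowers replicate 2 (adjusted p = 0.0584).

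The serine carboxypeptidase-like proteins, a family of proteases and acyltransferases grouped after the data were seen, moved both ways, with 4 of 18 higher and 3 lower. scpl35 (AT5G08260) had 590 and 582 in flowers and 177 and 142 in buds (1.82 ± 0.16, adjusted p = 0.00102). scpl41 (AT5G42230) had 151 and 120 in flowers and 43.1 and 42.4 in buds (1.45 ± 0.16). SCPL49 (AT3G10410) was the brightest of the family in buds, with 385 and 435 in flowers and 1101 and 1461 in buds (−1.61 ± 0.18, adjusted p = 0.00268). These 3 kept their calls in every alternative setting. scpl38 had the largest change, with 481 and 427 in flowers and 111 and 16.7 in buds (3.02 ± 0.71, adjusted p = 0.0445), and its bud arrays differed widely. Its change was 1.93 without buds replicate 2 and the call was lost there (adjusted p = 0.102), without flowers replicate 1 (0.163) or replicate 2 (0.154), and with the replicate block (0.0553). scpl29 and scpl25 were lower, with 166 and 205, and 338 and 281, in flowers, and 450 and 749, and 536 and 655, in buds. scpl29 lost its call without flowers replicate 1 (adjusted p = 0.0670), and without that array the family held 1 lower gene.

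Nitrate, peptide and glucosinolate transporters (NPF) had 4 of 6 tested members higher and 1 lower, but 1 higher and 0 lower without flowers replicate 1, flowers replicate 2 or buds replicate 2. GTR2 (AT5G62680) and GTR1 (AT3G47960) carry glucosinolates, the mustard oil precursors. GTR2 had 414 and 387 in flowers and 89.0 and 91.9 in buds (2.03 ± 0.24, adjusted p = 0.00318), and kept its call in every alternative setting. The calls of the other higher members, AT3G21670 and AT2G26690, were lost without flowers replicate 2 (adjusted p = 0.229 and 0.186) and with no filter (0.0602 and 0.0558), among other settings. GTR1 had 307 and 309 in flowers and 183 and 149 in buds (0.86 ± 0.15), a call lost without flowers replicate 1 (adjusted p = 0.0875), flowers replicate 2 (0.102) or buds replicate 2 (0.0708). AT1G59740 went the other way, with 106 and 119 in flowers and 302 and 373 in buds; it lost its call without flowers replicate 1 (adjusted p = 0.0635), flowers replicate 2 (0.0524) or buds replicate 2 (0.0646). AT1G68570, the brightest that did not pass, had 541 and 935 in flowers and 652 and 531 in buds (adjusted p = 0.593). On the wider list of aquaporins, ion and nutrient transporters 4 of 9 were higher and 4 lower. That list is no separate result, since it holds CHX19 and CHX20, described above. Its count of higher genes was that of the NPF family in every setting.

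Of 15 tested genes for secreted peptides, 3 were higher and 0 lower (median 0.40). LCR24 (AT4G29285), a cysteine-rich peptide gene, had 64.8 and 50.9 in flowers and 0.596 and 4.87 in buds, at least 6.47-fold higher, and 298 and 254 in siliques. RALFL22 and RALFL33, of the RALF peptides that signal through wall-sensing receptor kinases, had 293 and 296, and 242 and 314, in flowers, and 142 and 108, and 130 and 132, in buds. RALFL22 lost its call without flowers replicate 1 (adjusted p = 0.0533) or replicate 2 (0.0602), and RALFL33 without flowers replicate 2 (0.0762) or buds replicate 2 (0.0558). LCR69, the brightest, had 1623 and 1896 in flowers and 1105 and 1585 in buds (adjusted p = 0.383), and RALFL34 had 615 and 683 in flowers and 694 and 996 in buds (adjusted p = 0.325). The calcium sensors CML42 and CML41 moved in opposite directions. CML42 (AT4G20780), known from trichome branching, had 44.1 and 30.3 in flowers and 185 and 140 in buds (−1.87 ± 0.25, adjusted p = 0.00529). CML41 had 122 and 49.3 in flowers and 20.2 and 14.4 in buds, a call lost without flowers replicate 1 (adjusted p = 0.182), buds replicate 1 (0.0921) or buds replicate 2 (0.166).

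Of 8 tested genes of cold, dehydration and late embryogenesis, 2 were lower, LEA and COR15A, and 0 higher. COR15A, which protects chloroplast membranes in frost, had 111 and 103 in flowers and 369 and 358 in buds (−1.67 ± 0.36), and lost its call without any 1 of the 4 arrays (adjusted p = 0.0993 to 0.143). COR47, a dehydrin, was bright in flowers, at 2475 and 2396, against 1272 and 411 in buds, and did not pass (1.73 ± 0.46, adjusted p = 0.0661). Leaving out either bud array brought it past the threshold, at 2.54 without buds replicate 1 and 0.93 without buds replicate 2. In siliques it was at 308 and 366.

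Plastid-encoded genes were lower in flowers where called, with a larger median change in run 2. Of 52 tested, 10 were lower and 0 higher, beside 5.99% lower over all genes, with a median of −0.65 that was −0.29 in run 1 and −1.20 in run 2. atpA, of the plastid ATP synthase, had 122 and 43.6 in flowers and 416 and 795 in buds (−2.80 ± 0.59, adjusted p = 0.0294), lost without flowers replicate 2 or buds replicate 2 (0.136 each). psbI, of photosystem II and picked after its values were seen, had 152 and 24.7 in flowers and 188 and 337 in buds, −0.29 in run 1 and −3.32 in run 2, and did not pass (adjusted p = 0.155). The plastid genes with the brightest flower signal did not pass: rps4 stood at 2511 and 2446 in flowers and 2202 and 2392 in buds, and psbM at 2376 and 2668 in flowers and 1931 and 2675 in buds. Without flowers replicate 2, or without buds replicate 2, 0 of the 52 genes passed in limma.

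Of 13 tested nuclear genes of photosynthesis, 1 was lower and 0 higher (median −0.15). LHCB4.3, a light-harvesting protein, had 457 and 507 in flowers and 747 and 888 in buds and lost its call in 10 of the 13 alternative settings. RCA, the Rubisco activase, had 2604 and 2894 in flowers and 2373 and 2507 in buds (adjusted p = 0.613), and LHCB4.1 had 1801 and 2194 in flowers and 1925 and 2214 in buds (adjusted p = 0.896). Among lists with 4 or more tested genes, those without a single call were chlorophyll synthesis (7 tested), cell cycle and DNA replication (8), histones (6) and pectin enzymes (4). The mitotic kinase AUR1 had 135 and 143 in flowers and 144 and 155 in buds, and the histone HTB1 402 and 418 in flowers and 369 and 522 in buds. Among enzymes of central metabolism the ATP citrate lyase subunits ACLB-1 and ACLA-2, which make cytosolic acetyl-CoA, were lower, with 330 and 383, and 176 and 164, in flowers, and 633 and 734, and 291 and 308, in buds. Each lost its call without flowers replicate 1 (adjusted p = 0.0978 and 0.101), flowers replicate 2 (0.0569 and 0.150) or buds replicate 2 (0.0716 and 0.0994). Housekeeping families grouped after the data were seen had few calls as well, with 0 of 12 vacuolar sorting proteins, 0 of 10 exocyst and secretory proteins, 0 of 9 ubiquitin proteases and 1 of 11 ubiquitin-conjugating enzymes.

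**Figure D5:**
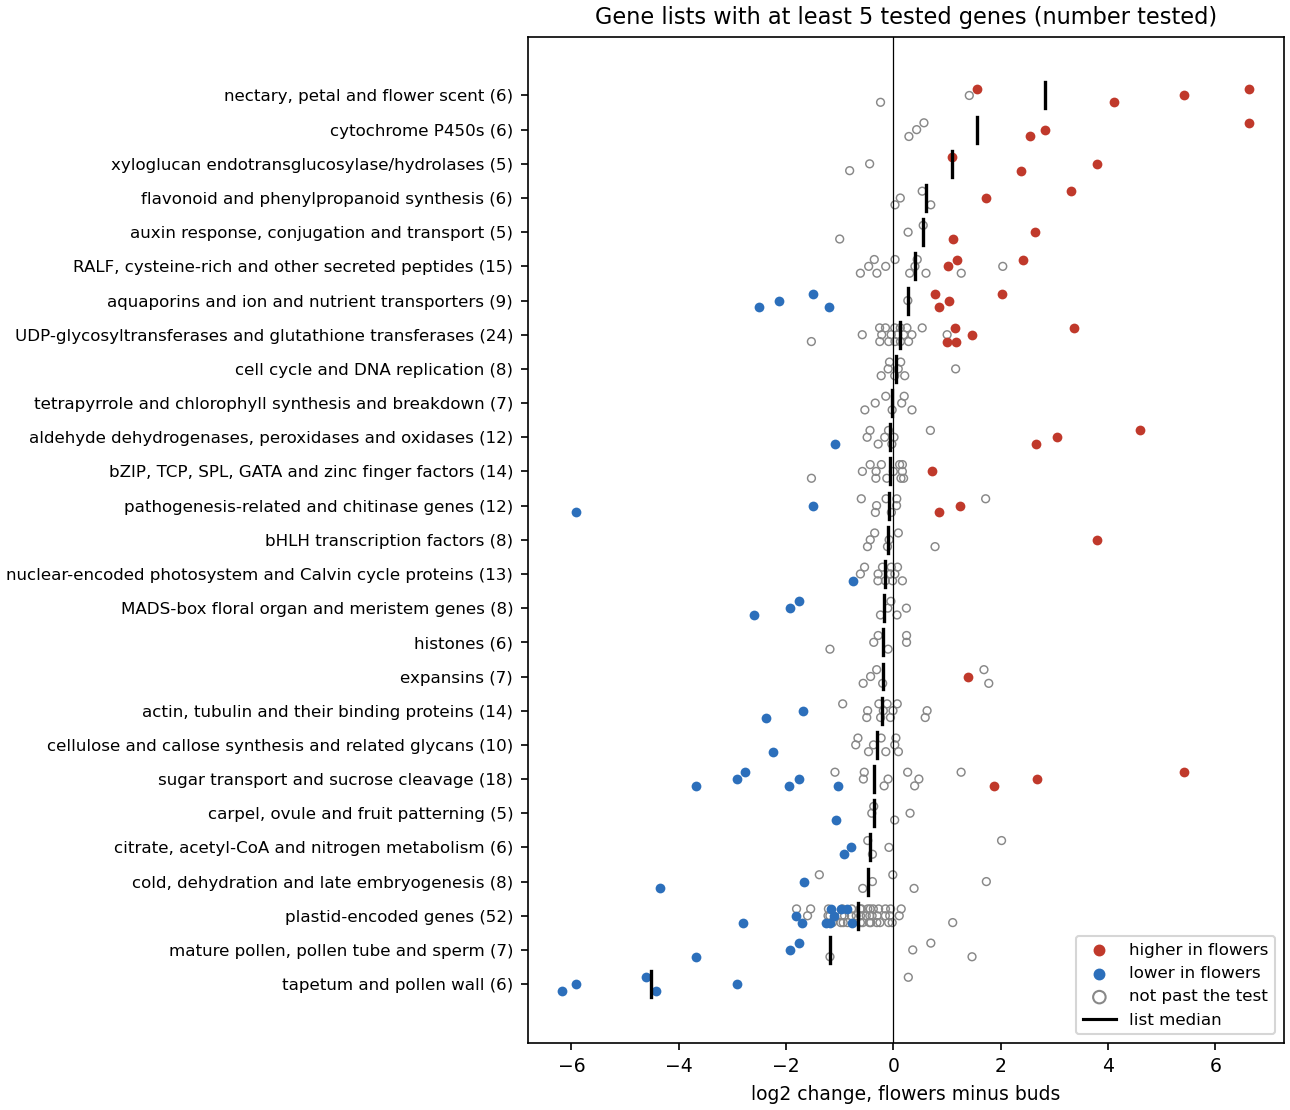
Log2 change, flowers minus buds, of every tested gene in the gene lists with at least 5 tested genes (number in parentheses), ordered by list median (black bar). Red points were higher in flowers, blue points lower, open circles did not pass; medians run from 2.84 for nectary, petal and flower scent to −4.52 for tapetum and pollen wall.

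Most called genes carry no symbol. Among probe sets with a single gene, 179 without a symbol were higher and 303 lower, and 666 called probe sets had no single gene in the supplied table. The largest fall of all was in AT1G68875, at 3.86 and 17.6 in flowers and 1875 and 1931 in buds (−6.61 ± 0.32), and AT5G62080 was at least 134-fold lower in flowers. AT5G10770 had 1352 and 1113 in flowers and 18.6 and 12.6 in buds (5.60 ± 0.49, adjusted p = 0.00106). AT4G14090 was at least 31.1-fold higher. AT3G24510 and AT1G56100 were at least 32.8-fold and 16.0-fold higher and stood at 1098 and 788, and 1368 and 1350, in siliques. These loci were named by size after their values were seen. Of the probe sets with no gene listed, the largest rise was in 1 with signals of 565 and 795 in flowers and 17.3 and 12.9 in buds, and the largest fall in 1 with 5.11 and 18.4 in flowers and 1513 and 2310 in buds.

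Neighbouring genes were compared as well. Of 1631 pairs of adjacent protein-coding genes with both tested, 14 had both lower, 2 both higher and 10 moved in opposite directions, while in 172 a lower gene and in 112 a higher gene stood beside one that did not pass. Both were lower in 7.14% of the pairs that held a lower gene. That share counts pairs, so it cannot be set against the 5.99% of single genes that were lower. A single run of more than 2 neighbours changed together: AT1G23570, AT1G23580, AT1G23590 and AT1G23600 were all lower in flowers. Genes in such a row can be close copies, so that their probe sets may share targets.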

How the data were processed

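Total RNA of 6 samples (2 each of flowers, buds and siliques) was hybridised to Affymetrix ATH1 arrays, 1 sample per array. The deposited values are signal intensities per probe set, on a linear scale, made by the authors with MAS5, per the submitters' processing notes; its version and settings are not given in the sources used here. On the deposited table the mean without the outer 2% was 100.01 on every array, so no further scaling was applied. The 64 control probe sets were left out. Of the rest, 12075 had a signal of at least 50 on at least 2 arrays. Signals were turned into log2(signal + 10), which understates the change of dim genes, and all 3 groups were fitted with limma 3.58.1 in R 4.3.3 (lmFit, eBayes with a trend, 3 residual degrees of freedom), with Benjamini-Hochberg adjustment over all 12075. A fold is given as "at least" where both arrays of the dimmer stage lay at or below each array's brightest control probe set without a target (7.20 to 10.1); it compares geometric means of signals with no offset, the dimmer arrays set to that control level.

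Gene names came from the platform's gene table, updated by locus through RefSeq: 13513 probe sets had 1 gene, of which 13436 matched, 503 had several and 8730 had none. For a gene with several tested probe sets, the one with the highest mean was taken; of 43 such genes 1 had some but not all probe sets called, and 0 had opposite calls. The members, gene lists and tests were chosen with earlier results of these data known, and the symbol families were added after the data were seen. Named genes were the 15 largest rises and falls among called genes with a symbol or listed gene, up to 4 called genes of each list by size, up to 2 bright genes per list that did not pass, and the markers; others are said to be chosen later.

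Replicate numbers come from the labels, which state that the whole experiment was run 2 times. Deviations between the runs correlated at 0.34 between flowers and buds, −0.01 between siliques and buds and 0.17 between siliques and flowers. The fit was tested on simulated data. The alternatives were the replicate block, offsets of 1 and 50, no filter and a filter of 100, quantile and median normalization, only the flower and bud arrays, no trend, and each flower or bud array left out.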

Additional observations from a re-analysis of the deposited data

How the results depend on the processing

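Over the 13 alternatives the count of probe sets higher in flowers ranged from 219 to 656 and that of lower ones from 361 to 834, and 37.8% to 50.9% of calls were higher, against 42.5%. With 1 array left out the counts ranged from 219 to 567 higher and from 361 to 548 lower. With the replicate block 656 were higher and 834 lower. The block ended the calls of 7 named genes (AGL66, psbT, LHCB4.3, GSTU16, UGT87A2, THI2.1 and scpl38) and no other named call, and brought JMT, EXLA1 and GAMMA-VPE past the threshold. Of 69 named genes that were called, 36 kept the call under every alternative, 31 lost it without at least 1 array, 15 lost it under at least 1 other setting, and 0 changed sign; 9 named genes that did not pass did so under at least 1 setting. Lower mature pollen genes numbered 1 rather than 3 with a filter of 100, and 1 to 3 with 1 array left out. Higher glycosyltransferase and glutathione transferase genes numbered 3 rather than 5 with the replicate block, 3 with an offset of 1, 2 with no filter, 2 with a filter of 100, and 1 to 2 with 1 array left out. Lower plastid genes numbered 6 rather than 10 with only the flower and bud arrays, and 0 to 13 with 1 array left out. Higher carboxypeptidase-like genes numbered 2 rather than 4 with an offset of 1, 2 with no filter and 2 with only the flower and bud arrays, and 2 to 4 with 1 array left out; the lower ones numbered 1 to 3. The mature pollen median was 0.36 with a filter of 100, against −1.18, and the carboxypeptidase-like median, 0.14, lay just under 0 without buds replicate 1. The causes were not tested. With 2 arrays per stage, signals near the control level give bounds rather than folds, and the offset shrinks changes of dim probe sets.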
